A study of Homo sapiens with 32 samples.

Results

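The laminin chains described here are 7 genes, LAMA1, LAMA3, LAMA5, LAMB1, LAMB2, LAMB3 and LAMC1, found by symbol among 60660 gene identifiers in a table of RNA counts. They were selected on measured values of these libraries, the difference between IGF2BP3 knockout and parental cells, in which LAMB1 was lower and LAMA3 higher. That contrast is therefore given below as a description, with no test. The RNA, selected for poly(A) tails, came from HCT116, a human colorectal carcinoma cell line, and filled 32 libraries with 16651438 to 24913021 counts each. There were 6 groups: parental cells, IGF2BP3 knockout and IGF2BP2 knockout, each in DMSO and in tunicamycin, with 4 libraries per parental group and 6 per knockout group. All of them, parental cells included, carry the genotype label Tet-OsTIR1-PURO. Each knockout is represented by 3 single-cell clones with 2 libraries per treatment, and the parental groups by 2 parental samples with 2 libraries each. Nothing in the labels says that the libraries of a line came from separate cultures, so p-values measure the spread between these libraries, which may be technical. Tunicamycin blocks N-linked glycosylation and stresses the endoplasmic reticulum. It was given at 5 µg/mL for 4 h, with DMSO at 1:1000 as control, to IGF2BP3 knockout and parental cells, and the dose for IGF2BP2 knockout clones is not stated.

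Laminins are the large glycoproteins on which a basement membrane is built. One alpha, one beta and one gamma chain assemble in the endoplasmic reticulum into a cross-shaped or rod-like trimer, and the alpha chain carries the main binding sites for integrins and dystroglycan. LAMA5 with LAMB1 and LAMC1, and LAMA3 with LAMB3, are chain combinations typical of epithelia, and LAMB2 can take the place of LAMB1 beside LAMA5. IGF2BP3 and IGF2BP2 are related proteins that bind mRNA.

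The guides that made the clones are shown because clones of one knockout do not all share a guide. Several chains differed between clones, also between clones that share a guide. D12 and G6 are each the only clone of their guide, so guide and clone cannot be told apart. All 4 target coding sequence on GRCh38, on the strand opposite to the transcript.
IGF2BP3, clones A3 and E4: tggcaccgactgatagagct
IGF2BP3, clone D12: acgcgtagccagtcttcacc
IGF2BP2, clones B7 and F6: gagctgccggaggtcgtcgg
IGF2BP2, clone G6: aggcgtagccggacttcagc
The guide of A3 and E4 lies at chr7:23319200-23319219 in exon 11 of 15, and that of D12 at chr7:23469990-23470009 in exon 1. The guide of B7 and F6 lies at chr3:185824895-185824914 and that of G6 at chr3:185824837-185824856, both in exon 1 of 16.

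The targeted genes and the stress response were checked first. IGF2BP3 averaged 76.7 ± 7.22 CPM (read counts scaled to library size with TMM factors; SD, n = 4) in parental cells in DMSO and 27.7 ± 10.8 CPM (SD, n = 6) in IGF2BP3 knockout. IGF2BP2 averaged 176 ± 19.9 CPM (SD, n = 4) in parental cells in DMSO and 86.9 ± 5.33 CPM (SD, n = 6) in IGF2BP2 knockout. HSPA5, the main chaperone of the endoplasmic reticulum, ran from 775 to 1119 CPM in the 16 DMSO libraries and from 7867 to 10959 CPM in the 16 tunicamycin libraries. Of 7 epithelial markers 6 reached a mean of 1 CPM, with a summed level of 3032 to 5458 CPM per library, and VIL1 did not. Fibroblast markers summed to 4.92 to 12.3 CPM, and of these 6 only COL1A1 reached a mean of 1 CPM (9.22 CPM). No endothelial or leukocyte marker reached 1 CPM. The 2 libraries of a line and treatment carry numbers 1 and 2, and number 2 libraries differed from number 1 libraries in some chains, so values within each number are given for the main differences.

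Among the alpha chains, LAMA5 made up most of the mRNA. Compared per length (CPM per kb of merged exons), LAMA5 was at 13.99 ± 1.94 and LAMA3 at 0.209 ± 0.008 in parental DMSO libraries (SD, n = 4). By line in DMSO, LAMA5 held 86.5% to 91.6% of the alpha chain level per length, and LAMA3 held 0.94% in clone G6 to 4.14% in clone F6. LAMA2, which is not among the 7, held 7.12% to 9.56%, more than LAMA3 in each line. These shares depend on the length used (merged exons), and the counts do not separate the transcripts of a gene. LAMA1, an alpha chain of early embryonic basement membranes, had 2 counts in all 32 libraries together, 1 in each of 2 libraries. It was not tested, so every count of tested chains below is over 6.

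Among the beta chains, LAMB3 was the most abundant per length in parental DMSO libraries, at 11.9 ± 2.08 CPM per kb, against 7.35 ± 0.27 for LAMB1 and 6.27 ± 0.75 for LAMB2 (SD, n = 4). LAMB1 and LAMB2 ranges in that group did not overlap (7.08 to 7.72 and 5.498 to 6.99 CPM per kb). Per kb of the longest transcript instead, LAMB3 was at 12.9 ± 2.27 and LAMB1 at 10.4 ± 0.38 (SD, n = 4). Their ranges then overlapped (10.7 to 15.9 and 9.997 to 10.9). LAMC1, the gamma chain of most laminins, stood at 18.3 ± 1.098 CPM per kb. LAMC3 stood at 1.35 ± 0.08 CPM per kb (SD, n = 4).

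**Figure D1:**
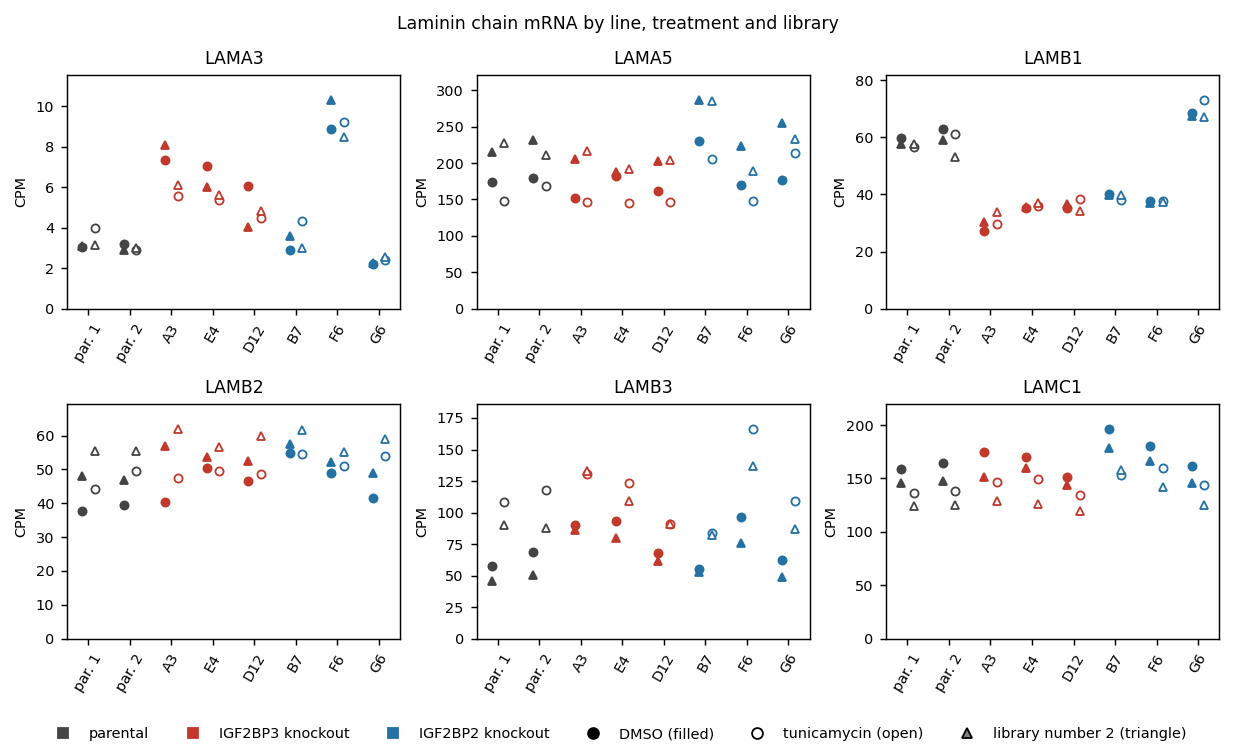
Level of the 6 detected laminin chains in each of 32 libraries, in CPM on the y axis from 0, by line on the x axis (par. 1 and par. 2, parental samples). Filled symbols are DMSO, open symbols tunicamycin, circles library number 1 and triangles library number 2. LAMB1 lies between 53.2 and 62.8 CPM in parental libraries and at 27.1 to 38.3 CPM in IGF2BP3 knockout libraries, and LAMB3 is higher with tunicamycin in each line.

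LAMB1, the usual beta partner of LAMA5, separated the lines into a high and a low set. In parental sample 1 it was at 59.8 and 57.6 CPM in DMSO and at 56.5 and 57.7 CPM in tunicamycin. In parental sample 2 it was at 62.8 and 59.1 CPM in DMSO and at 61.0 and 53.2 CPM in tunicamycin. The 8 parental libraries thus spanned less than 10 CPM. Clone A3 was lowest, at 27.1 and 30.3 CPM in DMSO and 29.8 and 33.8 CPM in tunicamycin. Clone E4 was at 35.4 and 35.6 CPM in DMSO and 35.9 and 37.0 CPM in tunicamycin, and clone D12 at 35.2 and 36.8 CPM, then 38.3 and 34.2 CPM. All 12 IGF2BP3 knockout libraries lay below all 8 parental libraries. LAMB1 was chosen as lower in this contrast, so the separation is a description only. The log2 fold change against parental cells was -0.84 ± 0.08 (SE) in DMSO and -0.71 ± 0.07 in tunicamycin. Of all genes tested, 1.61% were called at an adjusted p under 0.05 in the DMSO contrast and 0.718% in the tunicamycin contrast. With the counts of each line summed over its libraries, 47 of 16544 and 34 of 16522 genes were called.

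The IGF2BP2 knockout clones were not used to choose the genes, and LAMB1 differed among them. Clone B7 was at 40.3 and 39.7 CPM in DMSO and 38.0 and 39.8 CPM in tunicamycin. Clone F6 was at 37.8 and 36.9 CPM in DMSO and 37.6 and 37.5 CPM in tunicamycin. Clone G6 was at 68.5 and 67.3 CPM in DMSO and 73.2 and 67.2 CPM in tunicamycin. So all 8 libraries of B7 and F6 lay below, and all 4 of G6 above, every parental library. G6 exceeded the mean of B7 and F6 by 0.86 ± 0.04 on the log2 scale (SE; Benjamini-Hochberg adjusted p = 8.2e-09, edgeR, 12 libraries). The difference was 0.88 within library number 1 and 0.82 within number 2, while F6 and B7 differed by -0.07 ± 0.05 (adjusted p = 0.35, edgeR).

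Against parental cells, IGF2BP2 knockout as a group showed no call for LAMB1, with -0.31 ± 0.18 in DMSO (adjusted p = 0.98, edgeR) and -0.21 ± 0.19 in tunicamycin (adjusted p = 0.80). Without clone G6 the difference was -0.64 in DMSO (adjusted p = 0.00053, edgeR) and -0.56 in tunicamycin (adjusted p = 0.0064). G6 is the only clone above parental cells, so these p-values follow from leaving it out and are no test of the knockout. They rest on B7 and F6, which share a guide. No chain was called in either contrast, where 0.0137% and 0.00694% of all genes were called. At an unadjusted p under 0.05 the 2 contrasts held 690 and 1005 genes, and DESeq2 called no chain either. These contrasts share the parental libraries with the IGF2BP3 contrasts. Library titles put the G6 controls in DMSO while their treatment label says tunicamycin, and HSPA5 in all 16 libraries placed in DMSO was below its level in all 16 tunicamycin libraries.

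LAMA3, the alpha partner of LAMB3, was the least abundant detected member. In parental sample 1 it was at 3.06 and 3.09 CPM in DMSO and 3.98 and 3.17 CPM in tunicamycin, and in parental sample 2 at 3.20 and 2.92 CPM, then 2.91 and 3.005 CPM. Clone A3 was at 7.32 and 8.09 CPM in DMSO and 5.58 and 6.09 CPM in tunicamycin. Clone E4 was at 7.05 and 6.01 CPM in DMSO and 5.37 and 5.63 CPM in tunicamycin. Clone D12 was at 6.05 and 4.05 CPM in DMSO and 4.46 and 4.85 CPM in tunicamycin. Every IGF2BP3 knockout library lay above every parental library, and D12 reached nearest to the parental libraries. LAMA3 was chosen as higher in this contrast, so the separation is a description only. The log2 fold change against parental cells was 1.06 ± 0.17 (SE) in DMSO and 0.71 ± 0.14 in tunicamycin.

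In IGF2BP2 knockout, LAMA3 was high in 1 clone. F6 was at 8.87 and 10.3 CPM in DMSO and 9.20 and 8.49 CPM in tunicamycin. B7 was at 2.91 and 3.59 CPM in DMSO and 4.33 and 2.98 CPM in tunicamycin, and G6 at 2.20 and 2.25 CPM, then 2.41 and 2.54 CPM. All F6 libraries lay above all other libraries, all G6 libraries lay below all parental ones, and B7 overlapped the parental range. F6 exceeded B7 by 1.43 ± 0.14 on the log2 scale (adjusted p = 5.2e-06, edgeR, 12 libraries), with 1.34 within number 1 and 1.52 within number 2. G6 differed from the mean of B7 and F6 by -1.25 ± 0.14 (adjusted p = 3e-05, edgeR). The group contrast with parental cells, 0.71 ± 0.44 in DMSO and 0.62 ± 0.38 in tunicamycin, was not called (adjusted p = 0.98 and 0.70, edgeR), and without F6 it was -0.17 and -0.08.

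**Figure D2:**
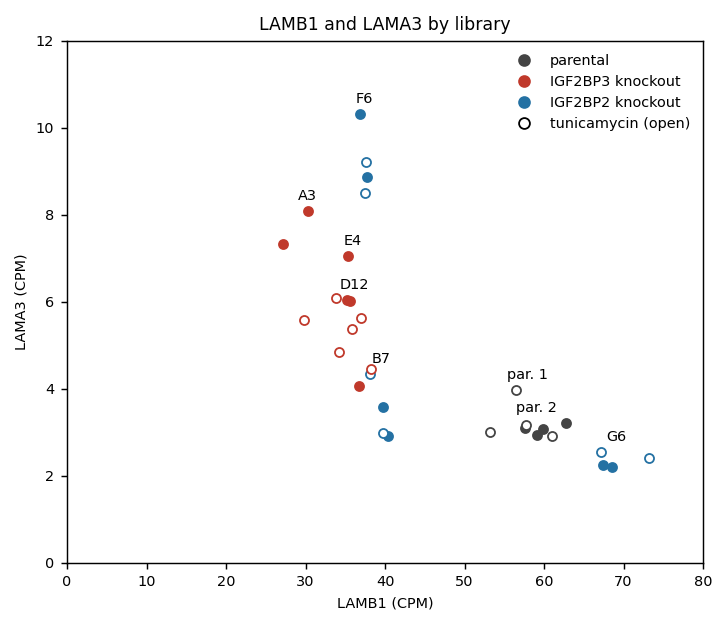
LAMB1 (x axis, CPM) against LAMA3 (y axis, CPM) in 32 libraries, coloured by genotype, with tunicamycin libraries open and line names beside their points. F6 lies at the LAMB1 level of the IGF2BP3 knockout clones with LAMA3 at 8.49 to 10.3 CPM, and G6 lies beyond the parental libraries on both axes.

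The pair LAMB1 and LAMA3 therefore took several combinations. A3, E4, D12 and F6 had LAMB1 below and LAMA3 above all parental libraries. G6 had LAMB1 above and LAMA3 below all of them, and B7 had LAMB1 below them with LAMA3 overlapping them.

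LAMB3, the beta partner of LAMA3, rose with tunicamycin in each genotype. In parental sample 1 it was at 57.3 and 46.0 CPM in DMSO and 109 and 89.9 CPM in tunicamycin, and in parental sample 2 at 68.5 and 50.6 CPM, then 118 and 87.7 CPM. The parental DMSO and tunicamycin libraries did not overlap. The log2 response was 0.87 ± 0.12 (SE; adjusted p = 0.00036, edgeR) in parental cells. It was 0.51 ± 0.05 (1.2e-06) in the IGF2BP3 clones and 0.77 ± 0.08 (1.1e-06) in the IGF2BP2 clones. The tunicamycin library was higher in 16 of 16 pairs of the same line and library number, by 0.41 to 0.96 on the log2 scale. Within number 1 and number 2 the response was 0.88 and 0.88 in parental cells, 0.48 and 0.55 in the IGF2BP3 clones, and 0.78 and 0.79 in the IGF2BP2 clones.

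The 6 pairs of IGF2BP3 knockout changed by 0.41 to 0.63 and the 4 parental pairs by 0.78 to 0.96, so these ranges did not overlap. The difference of responses was -0.35 ± 0.12 (SE; interval of 2 SE, -0.59 to -0.11) and was not called across all genes (adjusted p = 0.9997, edgeR interaction). Over its alternatives that p ran from 0.45 to 1. No gene of 15586 was called in this interaction by edgeR (0%), with 257 at an unadjusted p under 0.05. For IGF2BP2 knockout the LAMB3 difference was -0.09 ± 0.15 (interval of 2 SE, -0.40 to 0.21), and again no gene was called (0%; 219 at an unadjusted p under 0.05). DESeq2 called no chain in either interaction.

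LAMC1 fell with tunicamycin by a smaller and even amount. Its level ran from 145 to 165 CPM in the 4 parental DMSO libraries and from 124 to 138 CPM in the 4 tunicamycin libraries, without overlap. The log2 response was -0.23 ± 0.05 in parental cells (adjusted p = 0.0078, edgeR), -0.23 ± 0.05 in the IGF2BP3 clones (0.0037) and -0.20 ± 0.04 in the IGF2BP2 clones (0.0019). LAMC1 was lower in 16 of 16 pairs, by -0.36 to -0.16. Within numbers 1 and 2 the response was -0.22 and -0.23 in parental cells, -0.18 and -0.27 in the IGF2BP3 clones, and -0.19 and -0.20 in the IGF2BP2 clones.

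LAMB3 and LAMC1 were thus 2 of 6 tested chains called in each genotype, 1 higher and 1 lower. Among all genes, tunicamycin changed 25.9% in parental cells, 32% in the IGF2BP3 clones and 38.2% in the IGF2BP2 clones, so 2 of 6 is near the background. The median log2 response of the 6 chains was 0.01, 0.01 and 0.04 in the same order, against -0.01 for all genes in each. These fits leave out library number. With it as a term (the replicate block), LAMB2 was also called in parental cells and the IGF2BP2 clones. Calls among all genes then rose to 6030 of 15291 and 7164 of 14952.

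LAMB2, the other beta partner of LAMA5, was higher with tunicamycin in 14 of 16 pairs. The response was 0.25 ± 0.11 in parental cells (adjusted p = 0.15, edgeR), 0.12 ± 0.10 in the IGF2BP3 clones (0.41) and 0.16 ± 0.06 in the IGF2BP2 clones (0.065), so it was not called with both library numbers together. Within number 1 and number 2 alone, edgeR called it in parental cells (0.30, adjusted p = 0.0014, and 0.22, adjusted p = 0.0046). Those fits had 4 libraries each and called 4544 of 14235 and 5391 of 14906 genes. Within number 2 alone LAMB2 was called in the IGF2BP3 clones (0.13, adjusted p = 0.023) and the IGF2BP2 clones (0.15, adjusted p = 0.0038). Calls among all genes there were 6649 of 15110 and 6703 of 15019, so a call of 1 chain is little set apart from the background. With the replicate block the adjusted p of LAMB2 was 0.00066 in parental cells and 0.0055 in IGF2BP2 knockout (edgeR). LAMA5 and LAMB1 were not called, with responses from -0.08 to -0.05 and from -0.06 to 0.07. LAMA3 had -0.25 ± 0.10 in IGF2BP3 knockout (adjusted p = 0.083, edgeR), where 5 of 6 pairs were lower, and it was not called in the other two genotypes.

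**Figure D3:**
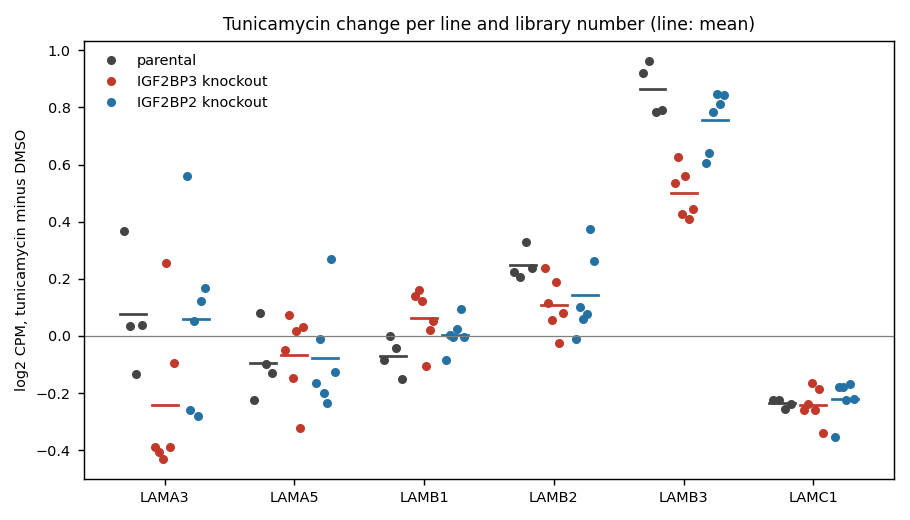
Change with tunicamycin (log2 CPM, tunicamycin minus DMSO, y axis) for 6 chains (x axis), 1 point per line and library number, coloured by genotype, with horizontal bars at the mean. All 16 points of LAMB3 are above 0 and all 16 of LAMC1 are below 0, while LAMA3 spreads from -0.43 to 0.56.

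Clones of one knockout also differed in LAMB3. In IGF2BP3 knockout, A3 was at 89.8 and 86.0 CPM in DMSO and E4 at 93.1 and 79.9 CPM, while D12 was at 67.8 and 61.7 CPM. D12 was lower than the mean of A3 and E4 by -0.43 ± 0.05 on the log2 scale (adjusted p = 0.00025, edgeR), with -0.45 within number 1 and -0.41 within number 2. In tunicamycin libraries alone the value was alike, -0.43, but not called (adjusted p = 0.22). LAMA3 differed in D12 by -0.38 ± 0.11 (adjusted p = 0.096, and 0.045 with the replicate block). LAMB3 was 1 of 6 chains called there, where 3.20% of all genes were called. D12 also had 1.02 ± 0.10 more IGF2BP3 mRNA on the log2 scale than A3 and E4 (adjusted p = 1.8e-05, edgeR), and the part of this in the chains was not tested.

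Between E4 and A3, LAMB1 was higher in E4 by 0.25 ± 0.07 (adjusted p = 0.048, edgeR), the 1 call among 6 chains, where 4.74% of all genes were called. The call was lost without A3 number 1 (0.17), without either D12 number (0.096 and 0.063), without either E4 number (0.21 and 0.33) and without the low-count filter (0.14). It was 0.34 within number 1 and 0.18 within number 2.

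Clone F6 differed from B7 in 3 of 6 chains, where 20.3% of all genes were called. Besides LAMA3, LAMB3 was higher in F6 by 0.78 ± 0.09 (adjusted p = 2.7e-05, edgeR), with 96.4 and 76.1 CPM in DMSO against 55.3 and 52.8 CPM in B7. In tunicamycin F6 reached 166 and 137 CPM, and B7 84.1 and 82.4 CPM. LAMA5 was lower in F6 by -0.46 ± 0.14 (adjusted p = 0.034), a call lost without B7 number 2 (-0.24, adjusted p = 0.38) or F6 number 1 (-0.29, adjusted p = 0.25). The mRNAs of LAMA3 and LAMB3, which assemble together, were thus both higher in F6 than in B7. Marker sums moved with this clone: F6 had the highest mean epithelial sum of the 8 lines, 4851 CPM against 3533 to 4401 CPM, and the lowest fibroblast sum, 6.51 CPM against 8.80 to 10.7 CPM. Single libraries overlapped in both sums. The epithelial sum ran from 4116 to 5458 CPM in F6 and from 3564 to 5143 CPM in parental sample 2. The fibroblast sum ran from 4.92 to 8.93 CPM in F6 and from 6.88 to 11.6 CPM in parental sample 1. By mean over all libraries, the largest epithelial markers were KRT8 (2187 CPM), KRT19 (965 CPM) and KRT18 (581 CPM). The fibroblast sum is mostly 1 gene, COL1A1. The part of the marker sums in the chain levels was not tested.

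Clone G6 differed from B7 and F6 in 3 of 6 chains, where 11.9% of all genes were called. Besides LAMB1 and LAMA3, LAMC1 was lower by -0.20 ± 0.05 (adjusted p = 0.012, edgeR), a call lost without B7 number 1 (0.053) or G6 number 2 (0.28). LAMB3 was at 62.0 and 48.5 CPM in G6 in DMSO, a difference of -0.24 ± 0.08 (adjusted p = 0.073, and 0.001 with the replicate block). The 2 parental samples differed in no chain, with log2 differences of -0.14 to 0.13, and no gene was called between them by edgeR (0%), with 253 at an unadjusted p under 0.05, and none by DESeq2. Other edgeR settings did call genes between them: 306 within number 1, 33 within number 2 and 4 with no low-count filter, none of them one of the 7 chains.

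The make-up of the beta chains followed from these levels, and the shares depend on the length used (merged exons). Per length in DMSO, LAMB1 held 29.5% and 28.3% of the beta level in the parental samples and 31.3% in G6. It held 11.99% in A3, 14.4% in E4, 17.4% in D12, 15.2% in F6 and 19.97% in B7. In tunicamycin the parental share of LAMB1 was 19.5% ± 0.83 against 28.9% ± 0.97 in DMSO (SD, n = 4). In these parental libraries the mean of LAMB3 was 11.9 CPM per kb in DMSO and 21.6 in tunicamycin. LAMB2 was at 6.27 and 7.45, and LAMB1 at 7.35 and 7.01. The part of each chain in the change of the share was not tested.

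**Figure D4:**
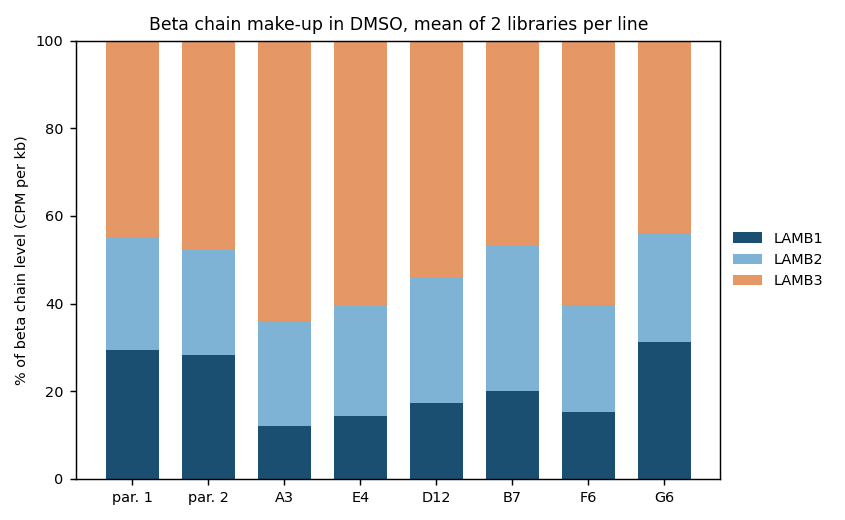
Share of each beta chain (stacked bars, % of the summed CPM per kb of LAMB1, LAMB2 and LAMB3, y axis from 0 to 100) by line in DMSO, mean of 2 libraries. The LAMB1 share runs from 11.99% in A3 to 31.3% in G6.

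The remaining chains had smaller differences in the IGF2BP3 contrast. LAMA5 was at 200 ± 27.7 CPM in parental DMSO libraries (SD, n = 4), 182 ± 21.5 in the IGF2BP3 clones and 224 ± 44.9 in the IGF2BP2 clones (SD, n = 6 each). In IGF2BP3 knockout the description against parental cells was -0.14 ± 0.11 for LAMA5, 0.22 ± 0.11 for LAMB2 and 0.04 ± 0.05 for LAMC1 in DMSO. LAMB3 had 0.52 ± 0.12 in DMSO and 0.17 ± 0.12 in tunicamycin, and within numbers 1 and 2 it had 0.42 and 0.64 in DMSO, then 0.03 and 0.33 in tunicamycin. Without clone D12 the LAMB3 value in tunicamycin was 0.30.

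Library number moved some chains in all lines. LAMA5 was higher in number 2 than in number 1 in 16 of 16 pairs (mean log2 difference 0.38), and LAMB2 in 16 of 16 (0.22). LAMB3 was higher in number 2 in 1 of 16 (-0.21) and LAMC1 in 1 of 16 (-0.14). LAMB1 and LAMA3 showed no common shift, with -0.01 and -0.05. Each line and treatment has 1 library of each number, so number is balanced over the groups.

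Of 33 genes of pathway lists (receptors, basement membrane partners, hemidesmosome proteins and laminin-processing proteases), 27 were tested in each contrast. Tunicamycin changed 3 in parental cells (0 higher, 3 lower), 6 in the IGF2BP3 clones (1 higher, 5 lower) and 6 in the IGF2BP2 clones (2 higher, 4 lower). These counts are below the 25.9%, 32% and 38.2% called among all genes. With the replicate block 8 of 27 were called in parental cells (4 higher, 4 lower), 7 in the IGF2BP3 clones and 8 in the IGF2BP2 clones, and calls among all genes also rose, in parental cells to 6030 of 15291. SDC1, DAG1 and BCAM were lower in each genotype. SDC1, a cell surface proteoglycan, had -0.47, -0.42 and -0.47, DAG1 (dystroglycan) had -0.33, -0.31 and -0.37, and BCAM, a receptor of LAMA5, had -0.96, -0.83 and -0.84 in the same order of genotypes.

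Between genotypes the lists held few calls. In IGF2BP3 knockout in DMSO, SDC1 was higher (0.29) and ITGA2, an integrin subunit, lower (-0.39), where 1.61% of all genes were called. Both calls count the libraries of a clone separately. In tunicamycin none of 27 was called, where 0.718% of all genes were, but with the replicate block SDC1 (0.33, adjusted p = 0.034, edgeR) and ITGA2 (-0.52, adjusted p = 0.019) were. In IGF2BP2 knockout none of 27 was called in either treatment. Between clones F6 and B7 11 of 27 were called, 7 higher and 4 lower, against 20.3% of all genes. The integrin subunits ITGA6 (0.37), ITGA3 (0.36), ITGA2 (0.52) and ITGB1 (0.31) were higher in F6, and MMP14 (-1.49), a membrane protease, and BMP1 (-0.44), which cleaves laminin chains, were lower.

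By likeness of pattern over 16 means of line and treatment (root mean square difference of centred log2 CPM, among 10143 genes), the nearest to LAMB1 were AADACP1 (0.17), NR4A2 (0.17) and ADAM19 (0.19). The nearest to LAMA3 were MGLL (0.25), ELF3 (0.26) and CDH1 (0.30). Over the 8 DMSO means alone the 3 nearest to LAMA3 were C1orf116, MGLL and ELF3, without CDH1. CDH1, which is also an epithelial marker, averaged 83.8 CPM in F6, 52.4 CPM in A3, 40.2 CPM in D12, 32.1 CPM in B7, 30.7 CPM in E4 and 22.6 CPM in G6, against 30.0 and 31.5 CPM in the parental samples. These averages join both treatments. E4, with LAMA3 above all parental libraries, averaged 27.2 CPM of CDH1 in DMSO, against 23.4 and 25.4 CPM in the parental samples. In tunicamycin it averaged 34.1 CPM, against 36.5 and 37.5 CPM.

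Promoter windows (250 bases before to 50 after a RefSeq start, GRCh38.p14) were found for 6 of 7 members, with 8 entries. LAMA3 and 1 of 3 LAMB3 entries are shown because these chains assemble together and both were higher in F6 than in B7. The LAMB3 entry was picked as the 1 of 3 that holds the motif marked below. Capitals mark the letters TGACTCA, the AP-1 motif, searched on both strands.
LAMA3, chr18:23872770-23873069, plus strand: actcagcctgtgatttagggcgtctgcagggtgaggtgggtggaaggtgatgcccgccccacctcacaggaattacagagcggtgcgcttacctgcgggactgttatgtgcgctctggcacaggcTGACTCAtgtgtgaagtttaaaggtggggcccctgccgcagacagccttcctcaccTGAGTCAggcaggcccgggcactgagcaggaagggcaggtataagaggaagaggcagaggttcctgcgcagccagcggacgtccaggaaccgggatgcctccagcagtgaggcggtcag
LAMB3, chr1:209651325-209651624, minus strand: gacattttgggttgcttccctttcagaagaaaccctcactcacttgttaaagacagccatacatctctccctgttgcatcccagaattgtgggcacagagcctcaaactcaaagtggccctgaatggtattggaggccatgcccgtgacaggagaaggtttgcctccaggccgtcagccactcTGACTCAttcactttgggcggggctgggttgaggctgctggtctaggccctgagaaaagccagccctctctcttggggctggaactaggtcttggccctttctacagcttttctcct
LAMA3 holds 2 matches, starting 125 and 69 bases before the start, and this LAMB3 entry holds 1, starting 67 bases before it. The LAMB1, LAMB2, LAMC1 and LAMA5 windows and the other two LAMB3 windows hold none, and 4.95% of 35116 promoters hold the motif. Of the other motifs searched, the stress motifs ERSE, CARE and XBP1 core and the TATA motif matched in none of the 8 entries. The GC box matched in each. A match is a description of letters only. The LAMA3 entry is an internal start of the gene (chr18:23689443-23956222 in GENCODE 29). The window of the LAMB3 entry shown also lies within its gene (chr1:209614870-209652466), and the counts do not separate starts.

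One overlap bears on LAMB1 (chr7:107923799-108003255, minus strand). DLD, on the other strand, covers 1685 of its 8140 exon bases, and whether counting used the strand is not stated. DLD differed between IGF2BP3 knockout and parental cells by -0.03 in DMSO and -0.05 in tunicamycin. ADRM1 covers 499 exon bases of LAMA5.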

How the data were processed

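The authors deposited whole-number counts per gene for 32 libraries, made with a directional kit and paired reads of 100 bases, per the labels' protocols. STAR 2.7.5c and hg38 are named in the submitters' processing notes, and the counting tool, its strand setting and the annotation are not given in the sources used here. Of 60660 identifiers, 22333 had no count. Totals ran from 16651438 to 24913021 (median 21441775.5). Replicate libraries differed by more than sampling noise (chi-square per degree of freedom 4.95 to 28.2 over 16 pairs), so none was treated as a duplicate.

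Groups came from the titles, which also place the G6 controls in DMSO. Each contrast was fitted across all genes of the libraries compared with edgeR 4.0.16 in R 4.3.3 (TMM, filterByExpr, quasi-likelihood test, Benjamini-Hochberg adjustment, threshold 0.05). The line was a term in treatment contrasts and interactions, and the treatment in clone contrasts. Libraries, not cultures, are the replicates, and in contrasts with parental cells the 2 libraries of a clone were counted separately. The SE is that implied by the F statistic. CPM are TMM-normalized, and levels per length use the merged exons of GENCODE 29. The fits were also tested on simulated data in which 200 genes had been changed. Alternatives were DESeq2 1.42.0 and its size factors, other low-count filters, a replicate block, each clone or replicate left out, 1 treatment alone, and 1 library number alone, the last chosen after seeing the data. Contrasts with parental cells were also fitted on counts summed per line.

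The members and gene lists were chosen with earlier results of these data known. Named genes are the 7 members, the list genes, and the 3 genes nearest in pattern to LAMB1 and to LAMA3 with a mean count of at least 100.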

Additional observations from a re-analysis of the deposited data

How the results depend on the processing

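Of the alternative values for called differences of the chains, 170 stayed called in the same direction, 20 lost the call and none changed sign. For uncalled or untested differences, 884 kept their direction and side of the threshold, 27 became called, 7 moved by more than 1 SE, and 62 lay on the other side of 0, and none of these 62 was called. The responses of LAMB3 and LAMC1 to tunicamycin stayed called in each genotype under every alternative run. Library number is not an established pairing, but same-numbered libraries shared a shift that the main fits leave out. Their deviations correlated over 120 pairs with r of 0.0856 to 0.553 (median 0.378), and 119 exceeded 0.1. With the replicate block, 2 chains were called in D12 against A3 and E4 in place of 1, and the tunicamycin counts were 3, 2 and 3 chains. Counts of called chains without single clones or replicates were 2 to 2 for each tunicamycin response, 0 to 1 for IGF2BP2 knockout in each treatment, 0 to 1 for E4 against A3, 2 to 4 for G6 and 2 to 3 for F6 against B7. Without the G6 control libraries 1 chain was called in IGF2BP2 knockout in DMSO. In tunicamycin libraries alone 0 were called in D12, and for E4 against A3 0 were called in DMSO alone, in tunicamycin alone and with no low-count filter, where the cause was not tested.

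Uncalled estimates that changed sign when a clone or replicate was left out had these ranges. Tunicamycin responses ran from -0.028 to 0.15 for LAMA3 in parental cells and from -0.12 to 0.0017 for LAMA5 in IGF2BP2 knockout. Interactions ran from -0.015 to 0.019 for LAMC1 (IGF2BP3), from -0.094 to 0.089 for LAMA3 and from -0.047 to 0.082 for LAMA5 (IGF2BP2). IGF2BP2 knockout against parental cells ran from -0.17 to 1.06 (LAMA3) and -0.029 to 0.35 (LAMB3) in DMSO, and from -0.076 to 0.94 and -0.14 to 0.32 in tunicamycin. LAMA5 in IGF2BP3 knockout in tunicamycin ran from -0.20 to 0.0088. D12 against A3 and E4 ran from -0.22 to 0.21 (LAMA5) and -0.14 to 0.13 (LAMB2). E4 against A3 ran from -0.27 to 0.25 (LAMA5), -0.19 to 0.28 (LAMB2) and -0.071 to 0.10 (LAMC1). G6 ran from -0.13 to 0.20 (LAMA5) and -0.20 to 0.00030 (LAMB2), and F6 against B7 from -0.15 to 0.0073 (LAMC1). Parental samples ran from -0.18 to 0.32 (LAMA5), -0.024 to 0.071 (LAMB1), -0.13 to 0.25 (LAMB2), -0.083 to 0.30 (LAMB3) and -0.025 to 0.076 (LAMC1).

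Within library number 1, the sign changed for LAMA5 in the IGF2BP2 response (0.015), the IGF2BP3 interaction (-0.021), D12 (-0.013) and E4 against A3 (0.13), and for LAMA3 in the IGF2BP2 interaction (0.13). Within number 2 it changed for LAMA5 in the IGF2BP3 response (0.049), the IGF2BP2 interaction (-0.084) and the parental samples (-0.0085). It also changed there for LAMA3 in the IGF2BP2 response (-0.18), LAMC1 in the IGF2BP3 interaction (-0.038), LAMB2 in D12 (-0.020), E4 (-0.11) and the parental samples (-0.023), and LAMB1 in the parental samples (-0.045). In DMSO alone it changed for LAMA5 in D12 (-0.0058), E4 (0.041) and G6 (-0.051) and for LAMB2 in D12 (-0.030). In tunicamycin alone it changed for LAMB2 in E4 (-0.042) and G6 (0.025), with no low-count filter for LAMB2 in D12 (-0.0024), and without the G6 control libraries for the LAMA5 interaction (-0.046) and LAMB2 in G6 (0.025).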
